A study of Mus musculus with 16 samples.

Results

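Gene expression was compared between the sorted cell fractions of mice that had breathed filtered air only, on 8 of the 16 arrays of the series. The 8 arrays are those with vehicle in the title: 4 titled GFP- and 4 titled GFP+, numbered as replicates 1 to 4. Arrays with the same number held the fractions of 1 pool of 3 mice, so each pool gave a matched pair of arrays. The series as a whole exposed 24 mice to filtered air or to a mixture of undecanal and bourgeonal, and measured messenger RNA on Clariom S arrays, which give 1 summarized signal for a gene. The vehicle mice were C57BL/6 animals of both sexes, 7 to 12 weeks old, with the S100a5-tauGFP reporter; the sources used here do not give its construction or zygosity. Each was kept alone for 40 h in a chamber flushed with clean air at 3.1 L per min, and from 26 h on received filtered air for 10 s every 20 min. The olfactory mucosa was then dissected, dissociated and sorted by fluorescence, and 50 to 100 ng of total RNA was labelled per array. The comparison asks which transcripts separate the fractions when no odorant was given.

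The olfactory mucosa holds ciliated sensory neurons, of which each mature cell expresses chiefly a single odorant receptor gene. The neurons are replaced throughout life by basal stem and progenitor cells, and stand among sustentacular supporting cells, microvillar cells, Bowman glands, blood vessels and leukocytes. S100a5 encodes a small calcium-binding protein of mature sensory neurons whose transcript follows their activity, which is why it was used to drive a fluorescent reporter.

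The groups follow the titles, and the cell type field of all 16 samples states the opposite GFP status to the title. The fractions are therefore called titled GFP- and titled GFP+ throughout. Arrays of 1 fraction correlated at 0.985 to 0.994 over the 19572 tested features, and arrays of different fractions at 0.934 to 0.963. A principal component analysis put 76.2% of the variance on a first axis along which the fractions did not overlap, and 7.31% on the next. The median signal of all tested features was 6.81 ± 0.03 (SD, n = 4) in titled GFP- and 7.21 ± 0.07 in titled GFP+ (log2; exact two-sided permutation test, p = 0.0286, the smallest that 4 arrays against 4 can give). The array titled GFP+ of replicate 1 stood apart from the other 3 of its group. Its mean over 23 mitosis genes was 8.96 against 7.00, 7.86 and 7.26, over 7 erythroid genes 9.48 against 6.99, 8.42 and 7.62, and over 17 T and NK cell genes 6.32 against 4.97, 5.16 and 5.05 in replicates 2 to 4. Results were therefore also computed without replicate 1, and the calls that ended are given beside them.

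**Figure D1:**
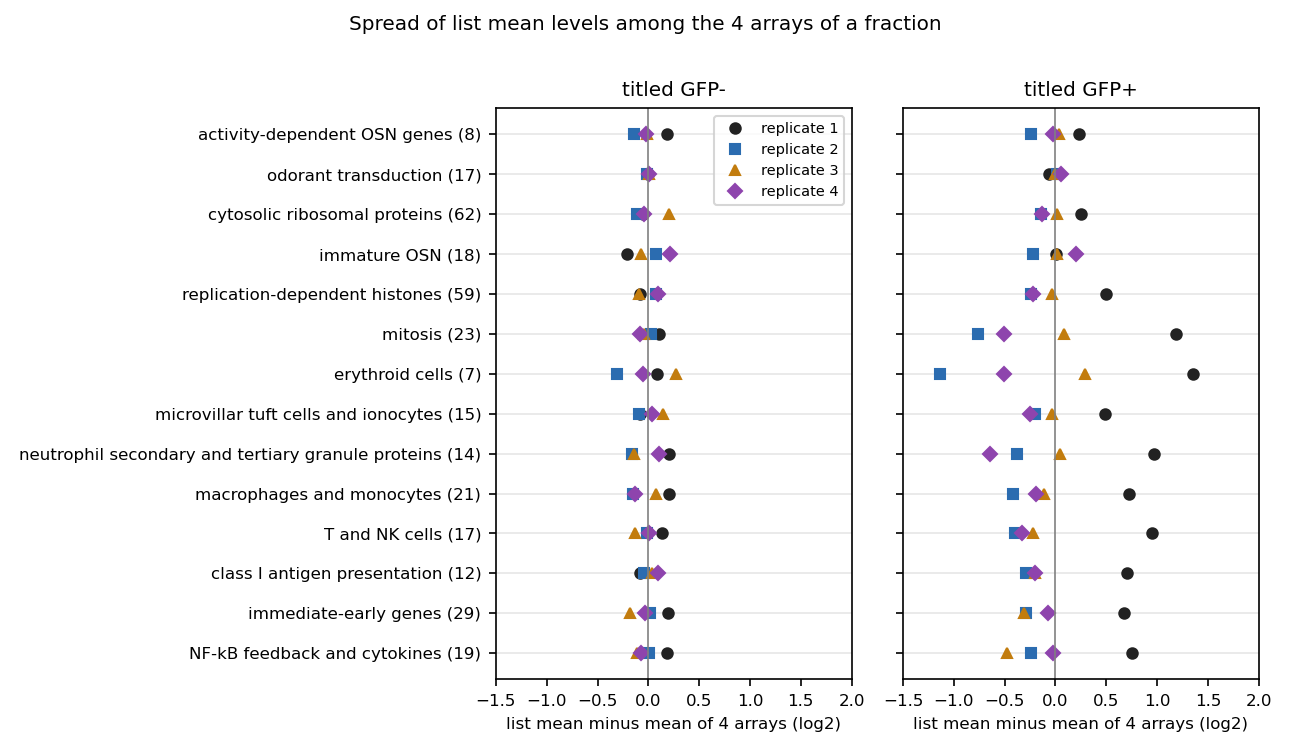
Mean log2 signal of 14 gene lists on each array, minus the mean of the 4 arrays of its fraction (horizontal axis, log2), for titled GFP- (left) and titled GFP+ (right); symbols mark the replicates and the number of list members stands in brackets. On the right, replicate 1 lies highest for 12 of the 14 lists, all except the odorant transduction and immature neuron lists, and the arrays on the left lie closer to their mean.

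The fractions differed in a large part of the transcriptome. A linear model (limma, with Benjamini-Hochberg adjustment over all tested features at 0.05) called 3302 of 19572 features, or 16.9%. Of these, 1380 were higher in titled GFP- (7.05%) and 1922 were higher in titled GFP+ (9.82%). The counts given below for gene lists stand against these shares. The difference had the same sign in all 4 pools for 3247 of the called features. These features were called from the same arrays, so this agreement is no separate support. The 4 arrays of each fraction did not overlap for 2966 called features, and for 4574 (23.4%) of all 19572 tested features. Differences throughout are the titled GFP- level minus that of titled GFP+, in log2 units, with the standard error (SE) of the model, and array values are listed for replicates 1 to 4.

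Receptors made up most of the large differences toward titled GFP-. Among features higher in titled GFP- by more than 1 log2 unit, 352 of 418 were olfactory or trace amine receptors, and beyond 3 log2 units 55 of 56 were. Among features higher in titled GFP+ by more than 1 unit, 219 of 1472 were receptors, and beyond 3 units 122 of 487 were. Only 524 of the called features lay above the background of negative controls on all 8 arrays (329 higher and 195 lower in titled GFP-), and 1745 lay below it on all 8. For features below background on every array of 1 fraction, the difference is given as a lower bound, "at least N-fold". With the highest of the GC-graded background probe sets in its place, these bounds would be 3.22 to 4.00 times larger for the 209 features bounded under both, and with the 95th percentile of those sets, chosen after seeing the data, 5.26 to 5.37 times larger for 162 features. No fold is given for features below background in both fractions. In sorted bulk cells, more cells of a type and more RNA per cell cannot be told apart.

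The split between directions depended on the scaling of the arrays. The median difference over all features was 0.13 as deposited, 0.54 with arrays centred on their overall median, and -0.14 with arrays centred on their receptor median. The corresponding counts were 12456 higher and 1529 lower in titled GFP- under the first centring, and 343 higher and 1801 lower under the second. Quantile normalization gave 2643 and 1863. Without replicate 1, 2138 features passed, 681 higher and 1457 lower in titled GFP-, and 856 and 770 were higher without replicate 2 or 3.

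The reporter gene and the activity-dependent neuron genes were higher in titled GFP-. S100a5 measured 16.44, 16.30, 16.46 and 16.29 in titled GFP- and 15.51, 15.44, 15.33 and 15.22 in titled GFP+. All 4 titled GFP- arrays lay above all 4 titled GFP+ arrays, and the difference was 1.00 ± 0.20 (SE of the model, 4 arrays against 4, adjusted p = 0.0019). The exact permutation test, which ignored the pairing, gave p = 0.0286. With the pools as a block in the model, the adjusted p was 0.015. The gene that drives the reporter was thus higher in the fraction titled GFP-, which the cell type field calls GFP positive. With arrays centred on the receptor median the difference was 0.73 and no longer passed (adjusted p = 0.11). The receptor median itself was 9.13 ± 0.25 in titled GFP- and 8.86 ± 0.24 in titled GFP+ (exact permutation p = 0.229).

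Of 8 listed genes known to follow sensory neuron activity, 7 were higher in titled GFP- and none was lower, with a median of 1.20 (1.09 with dim members at their bound). The same median over all features was 0.13. Lrrc3b, a leucine-rich repeat membrane protein gene, measured 13.76, 12.20, 13.24 and 12.64 in titled GFP- against 12.06, 10.12, 11.31 and 10.83 in titled GFP+. Its levels varied between pools, yet in every pool titled GFP- was higher, and the difference was 1.88 ± 0.38 (adjusted p = 0.0019). Pcp4l1, a Purkinje cell protein 4-like gene, differed by 1.67 ± 0.22 (adjusted p = 3.5e-05). Cidea, which encodes a lipid droplet protein, measured 11.64 to 12.23 against 10.19 to 10.65 and differed by 1.52 ± 0.17 (adjusted p = 6.8e-06). The arrays of the fractions did not overlap for either gene.

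Kirrel2, an adhesion molecule that sorts sensory axons by activity, was higher in titled GFP- by 1.18 ± 0.26 (adjusted p = 0.0038). Pcdh10, a protocadherin, passed with an adjusted p of 0.030 and was at least 1.02-fold higher, and lost the call without replicate 1, 2 or 3 (highest adjusted p 0.14). Plcxd3 was also higher in titled GFP- (adjusted p = 7.4e-05) but lay below background on all 8 arrays, so no fold is given. The exception was Rab3b, a vesicle-associated small GTPase gene, at 14.58, 14.73, 14.59 and 14.79 in titled GFP- against 14.71, 14.96, 14.95 and 14.97 in titled GFP+. Its difference of -0.22 ± 0.18 did not pass (adjusted p = 0.41), and it turned positive (0.18) with overall-median centring. With arrays centred on the receptor median, Lrrc3b, Pcp4l1, Cidea and Plcxd3 kept their calls and S100a5, Kirrel2 and Pcdh10 did not.

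**Figure D2:**
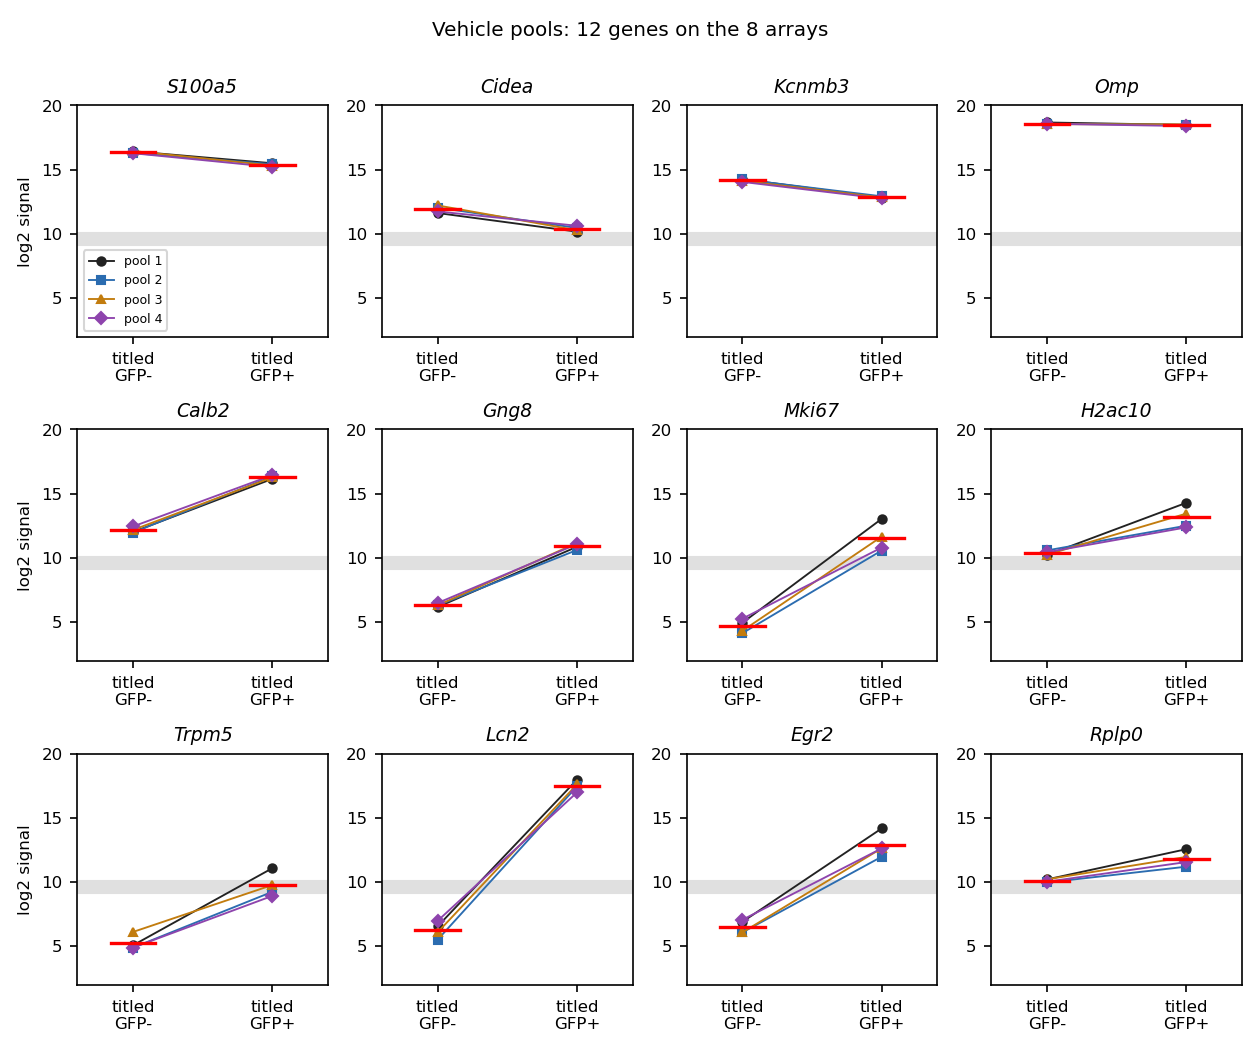
Log2 signal (vertical axis) of 12 genes in titled GFP- and titled GFP+ of each vehicle pool; lines join the fractions of a pool, red bars are means of 4 arrays, and the grey band spans the background levels of the 8 arrays, 9.14 to 10.08. S100a5, Cidea and Kcnmb3 slope down from titled GFP- to titled GFP+ in all 4 pools, Omp is level, and the other 8 genes slope up, most steeply Lcn2.

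S100a5 lies in a cluster of S100 genes on chromosome 3 whose members are expressed in different cells. The 250 bases upstream of its start site are shown with those of S100a8 and S100a9, calprotectin genes of neutrophils, because S100a5 was higher in titled GFP- and both others in titled GFP+ (RefSeq, GRCm38.p6). The windows are chr3:90608272-90608521 on the plus strand, chr3:90668821-90669070 on the plus strand and chr3:90695722-90695971 on the minus strand. Capitals mark a match to the PU.1 motif AGGAAGT (S100a8, read on the opposite strand) and to the C/EBP motif TTGCNNAA (S100a9).
S100a5: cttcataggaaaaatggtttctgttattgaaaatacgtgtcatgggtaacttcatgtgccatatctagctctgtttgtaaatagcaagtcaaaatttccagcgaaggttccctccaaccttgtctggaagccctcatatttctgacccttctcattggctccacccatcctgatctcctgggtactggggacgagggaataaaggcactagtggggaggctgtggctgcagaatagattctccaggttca
S100a8: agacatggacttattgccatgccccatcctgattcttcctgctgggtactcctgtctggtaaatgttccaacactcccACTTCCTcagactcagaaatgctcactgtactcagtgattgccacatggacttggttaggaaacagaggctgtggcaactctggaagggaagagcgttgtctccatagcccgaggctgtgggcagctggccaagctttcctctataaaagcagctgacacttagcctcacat
S100a9: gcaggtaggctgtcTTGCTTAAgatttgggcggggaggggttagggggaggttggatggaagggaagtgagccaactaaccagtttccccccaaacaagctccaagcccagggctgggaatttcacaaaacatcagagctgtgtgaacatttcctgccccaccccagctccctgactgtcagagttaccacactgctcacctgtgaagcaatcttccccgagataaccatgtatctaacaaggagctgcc
The motifs searched, on both strands, were AGGAAGT, TTGCNNAA, AP-1 TGANTCA, EBF CCCNNGGG and homeodomain TAATTA, and none was found in the S100a5 window. Of the 27025 genes in the promoter table, 8.80% held AGGAAGT and 10.8% held TTGCNNAA. AGGAAGT was present in 15.1% of 1374 non-receptor genes higher in titled GFP+, in 7.71% of 804 higher in titled GFP-, and in 8.05% of 12577 that did not pass. TTGCNNAA was present in 12.4%, 10.3% and 9.91% of the same sets. These shares are a description of letters in the windows.

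Of 19 genes with an S100 symbol, 2 were higher and 6 were lower in titled GFP-. S100a8 measured 5.36, 6.24, 5.08 and 5.20 in titled GFP- against 16.18, 15.03, 15.48 and 14.28 in titled GFP+, at least 49.8-fold higher in titled GFP+ (adjusted p = 9.3e-11). S100a9 was at least 40.3-fold higher in titled GFP+ (adjusted p = 9.3e-11) and S100a11, a widely expressed member, at least 19.1-fold (adjusted p = 4.8e-09). S100a10, S100a4 and S100a6 were also higher in titled GFP+, with adjusted p of 1.7e-04, 3.6e-04 and 7.2e-04, all below background on all 8 arrays. S100a3, below background as well, was higher in titled GFP- (adjusted p = 0.013), a call that ended without replicate 1 or 3 (highest adjusted p 0.14).

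Most genes of odorant transduction and mature neurons did not pass in the deposited scaling. With overall-median centring most did, as did most features. Omp, the olfactory marker protein gene of mature sensory neurons, measured 18.68, 18.58, 18.55 and 18.58 in titled GFP- against 18.49, 18.50, 18.53 and 18.40 in titled GFP+. The groups did not overlap, but the difference of 0.12 ± 0.10 did not pass (adjusted p = 0.46). The 8 features with the highest levels were the same in both fractions, with array values of 18.1 to 19.3, and 0 of them passed. These are the highest signals of the arrays, and the deposited values do not show whether such probes were saturated. They include Omp, Gfy, which encodes a Golgi protein of sensory neurons, and Stoml3, a stomatin of the cilia. Stoml3 differed by 0.00 ± 0.10 and Gfy by 0.03 ± 0.10 (adjusted p of 0.98 and 0.86). The sign for all 3 genes turned negative with receptor centring. All 3 passed as higher in titled GFP- with overall-median centring, where 12456 of 19572 features were higher.

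Of 17 transduction genes, 3 were higher and 1 was lower in titled GFP-, with a median of 0.23 (0.20 with dim members at their bound). Pde1c, a calmodulin-dependent phosphodiesterase of the cilia, measured 16.06, 15.97, 16.12 and 16.05 against 15.48, 15.43, 15.42 and 15.60, a difference of 0.57 ± 0.10 (adjusted p = 7.2e-04). Ano2, the calcium-activated chloride channel, differed by 0.39 ± 0.10 (adjusted p = 0.014; without replicate 1, 2 or 3 up to 0.073). Pde4a, a cAMP phosphodiesterase, differed by 0.40 ± 0.13 (adjusted p = 0.041); it did not pass with the pools as a block (0.052) or without any 1 replicate (up to 0.18). These 3 genes did not pass, and the list median changed sign, with arrays centred on the receptor median. The adenylyl cyclase Adcy3 and the channel subunit Cnga2 measured 0.24 ± 0.10 and 0.20 ± 0.10 and did not pass (adjusted p of 0.11 and 0.20), with the sign turned under receptor centring. Both passed with overall-median centring, where 14 of the 17 genes were higher and 1 was lower in titled GFP-. Grk3, a receptor kinase gene, was higher in titled GFP+ (adjusted p = 0.0029) at levels below background on all 8 arrays.

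Of 14 genes of mature neuron identity and receptor trafficking, 1 was higher and 2 were lower in titled GFP-, with a median of 0.17 that changed sign with receptor centring. With overall-median centring 12 were higher and 1 was lower. Slc17a6, the vesicular glutamate transporter, differed by 0.34 ± 0.11 (adjusted p = 0.049); it did not pass with the pools as a block (0.072) or without any 1 replicate (up to 0.19). Scg2 and Nrgn were higher in titled GFP+ at levels below background (adjusted p of 0.0068 and 0.0074), and both lost the call without replicate 3 (0.070 and 0.058). Nrgn did not pass with either centring of the arrays. Of 19 presynaptic genes, 3 were higher in titled GFP- and 0 were lower, with a median of 0.30 (0.25 at the bounds). Syn2, a synaptic vesicle phosphoprotein gene, measured 14.00 to 14.36 against 13.16 to 13.54 and differed by 0.79 ± 0.16 (adjusted p = 0.0020). Syn1 (0.55 ± 0.17, adjusted p = 0.034) and Nsf (0.47 ± 0.15, adjusted p = 0.045) passed but did not without any 1 replicate (up to 0.15 and 0.17), and Nsf did not with the block (0.052). None of Slc17a6, Syn2, Syn1 and Nsf passed with receptor centring. With overall-median centring 16 of the 19 presynaptic genes were higher in titled GFP- and 0 were lower.

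Ion channel, guidance and adhesion genes held single members with clear differences in both directions. Of 90 genes with a Kcn symbol, which mark potassium channels and their partners, 13 were higher and 7 were lower in titled GFP- (median 0.17, or 0.00 at the bounds, and of opposite sign with receptor centring). These counts were 14.4% and 7.78%, against 7.05% and 9.82% of all features. Kcnmb3, an accessory subunit of calcium-activated potassium channels, measured 14.28, 14.26, 14.14 and 14.06 against 12.84, 12.94, 12.85 and 12.77. The arrays of each fraction lay within a narrow range, the groups did not overlap, and the difference was 1.34 ± 0.12 (adjusted p = 7.8e-07). Kcnn2, a small-conductance calcium-activated channel, differed by 1.00 ± 0.14 (adjusted p = 6.8e-05). Kcnd1 was higher in titled GFP- and Kcnj3 in titled GFP+ (adjusted p of 7.6e-04 and 7.1e-04), both below background on all 8 arrays.

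Of 35 sodium and calcium channel genes, 3 were higher and 1 was lower in titled GFP- (8.57% and 2.86%, against 7.05% and 9.82% of all features). Scn4b, a sodium channel beta subunit, measured 15.33 to 15.52 against 14.57 to 14.74, a difference of 0.79 ± 0.12 (adjusted p = 1.3e-04). Of 68 axon guidance genes, 8 were higher and 3 were lower (11.8% and 4.41%). The semaphorin genes Sema3e and Sema7a differed by 1.13 ± 0.19 (adjusted p = 4.4e-04) and 0.77 ± 0.12 (adjusted p = 2.0e-04). Sema6c was at least 1.19-fold higher in titled GFP- (adjusted p = 1.8e-04), and the semaphorin receptor gene Plxnb3, above background on 1 array, was also higher (adjusted p = 8.0e-04). The medians of both lists, 0.21 and 0.08, were 0.00 at the bounds and changed sign with receptor centring. Kcnn2, Scn4b, Sema7a and Plxnb3 did not pass with that centring, while Kcnmb3, Kcnd1, Sema3e and Sema6c did. The counts higher and lower were then 2 and 7 of the Kcn genes, 0 and 1 of the sodium and calcium channel genes and 2 and 3 of the guidance genes. With overall-median centring they were 59 and 5, 25 and 0, and 37 and 1.

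Protocadherins, adhesion molecules of neurons, were higher in titled GFP- where they passed. Of 20 clustered protocadherin genes, 8 were higher and 0 were lower, with a median of 0.56 (0.00 at the bounds), and 1, 3, 2 and 6 passed without replicates 1 to 4 in turn. With receptor centring 0 of the 20 passed, and with overall-median centring 18 did. Pcdhb8 measured 7.46 to 7.78 against 6.73 to 6.97, below background on all 8 arrays (adjusted p = 4.8e-05). Of 11 non-clustered protocadherins, 3 were higher: Pcdh10, named above, Pcdh7 (1.06 ± 0.25, adjusted p = 0.0066) and Pcdh8 (1.13 ± 0.29, adjusted p = 0.012). Pcdh8 lost the call without replicate 2 (0.063). With receptor centring Pcdh7 passed and Pcdhb8 and Pcdh8 did not.

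Cilia genes showed small differences. Of 29 genes for intraflagellar transport, its motors and the BBSome, 2 passed, both higher in titled GFP- (6.90%, against 7.05% of all features). Ift81 differed by 0.44 ± 0.12 (adjusted p = 0.017; up to 0.10 without replicate 1, 2 or 3). Ttc8, the BBSome subunit BBS8, differed by 0.48 ± 0.16 (adjusted p = 0.045) and did not pass with the block (0.062) or without any 1 replicate (up to 0.16). Of 34 motile cilia genes, 8 were higher in titled GFP- and 0 were lower, with a median of 0.38 (0.10 at the bounds). Hydin, a central-pair protein gene, was above background on all 4 titled GFP- arrays and on 0 titled GFP+ arrays, at least 1.27-fold higher (adjusted p = 0.0054). Ccdc113 was below background throughout (adjusted p = 0.0044). With receptor centring 0 genes of either list passed. With overall-median centring 28 of the 29 and 31 of the 34 were higher in titled GFP-.

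The 12 non-receptor genes with the largest differences toward titled GFP-, among those above background on all arrays, included 4 outside these groups. Adam28, a membrane metalloprotease gene, measured 14.36, 14.35, 14.85 and 14.90 against 12.78, 13.19, 13.56 and 13.86, a difference of 1.27 ± 0.27 (adjusted p = 0.0027). Syngr1, a synaptic vesicle protein gene, measured 13.61 to 13.83 against 12.20 to 12.76 and differed by 1.22 ± 0.16 (adjusted p = 2.6e-05). The arrays of the fractions did not overlap for either gene. Etv5, an ETS transcription factor gene, differed by 1.23 ± 0.26 (adjusted p = 0.0033), and Mapk4, an atypical MAP kinase gene, by 1.12 ± 0.15 (adjusted p = 3.0e-05). Etv5 and Mapk4 did not pass with receptor centring.

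Markers of immature sensory neurons were higher in titled GFP+. Of 18 listed genes, 10 passed, all higher in titled GFP+, with a median of -0.79 (-0.41 at the bounds). Gng8, a G protein subunit gene of immature neurons, measured 6.20, 6.32, 6.33 and 6.51 in titled GFP- against 10.88, 10.63, 11.18 and 11.09 in titled GFP+. The 4 titled GFP+ arrays were close to each other, titled GFP- was below background on all 4 arrays, and the gene was at least 2.53-fold higher in titled GFP+ (adjusted p = 3.7e-10). Dpysl3, a cytoskeletal protein gene of growing axons, was at least 6.90-fold higher (adjusted p = 2.1e-09). Sox11, a transcription factor of new neurons, and Gap43, the growth-associated protein, were at least 3.33- and 2.02-fold higher (adjusted p of 6.0e-07 and 6.3e-06). Stmn1, a microtubule-destabilizing protein gene, measured 10.39 to 11.40 against 12.96 to 13.54 and differed by -2.31 ± 0.21 (adjusted p = 6.7e-07). Cxcr4, a chemokine receptor of neuronal progenitors and of leukocytes, was at least 2.15-fold higher (adjusted p = 9.0e-10).

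Calb2, which encodes the calcium-buffering protein calretinin, had the largest difference toward titled GFP+ after Fos among non-receptor genes above background on all arrays. It measured 12.03, 11.99, 12.19 and 12.46 in titled GFP- against 16.16, 16.36, 16.28 and 16.45 in titled GFP+. The groups were far apart compared with the spread within each, and the difference was -4.14 ± 0.17 (adjusted p = 9.5e-11).

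Of 11 progenitor genes, 8 were higher in titled GFP+ and 0 in titled GFP-, with a median of -1.20 (0.00 at the bounds). Nhlh1 and Nhlh2, transcription factors of early neurons, were at least 1.83- and 1.20-fold higher in titled GFP+ (adjusted p of 3.6e-09 and 5.0e-06). Kit, the receptor of globose basal cells and of mast cells, measured 4.46 to 4.83 against 8.32 to 9.54 and was above background on 1 titled GFP+ array (adjusted p = 2.0e-08). Sox2, a stem cell factor shared with supporting cells, passed below background (adjusted p = 6.6e-06). All 8 horizontal basal cell genes lay below background on all 8 arrays and 0 passed; Trp63, which defines these cells, measured 3.58 to 4.30 against 3.13 to 3.56 (adjusted p = 0.070). Of 22 regulators of receptor choice, 1 passed: Lbr, the lamin B receptor gene, measured 10.15 to 10.67 against 11.67 to 12.99 (-1.67 ± 0.32, adjusted p = 0.0015). Lbr is also expressed in leukocytes, whose markers moved with it as described below, and their part in this result was not tested.

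Mitosis genes were higher in titled GFP+ with few exceptions, and DNA replication genes in fewer cases. Of 23 mitosis genes, 21 passed, all higher in titled GFP+, with a median of -2.57 (0.00 at the bounds, since all 23 lay below background on the titled GFP- arrays). Mki67, a nuclear protein gene of proliferating cells, measured 4.97, 4.16, 4.35 and 5.29 against 13.05, 10.59, 11.67 and 10.82. Replicate 1 was highest in titled GFP+ and all 4 titled GFP+ arrays were above background, at least 3.81-fold higher (adjusted p = 9.6e-07). Ube2c, a ubiquitin ligase partner of mitosis, was above background on 1 titled GFP+ array (adjusted p = 1.3e-05). Of 23 DNA replication genes, 9 were higher in titled GFP+, among them Rrm2, a subunit of ribonucleotide reductase (above background on 2 titled GFP+ arrays, adjusted p = 4.8e-05), and the helicase subunit Mcm3 (below background, adjusted p = 1.7e-04). Other cell types moved with these lists: the mean of 7 neutrophil primary granule genes was 4.87 to 5.12 in titled GFP- against 8.93, 7.29, 7.65 and 8.09 in titled GFP+, and that of 7 erythroid genes 5.48 to 6.06 against 9.48, 6.99, 8.42 and 7.62. Both were highest in replicate 1, as the mitosis list was. The part of dividing blood cell precursors in the cell cycle and histone results was not tested.

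Histone genes followed the same direction. Of 59, 28 were higher in titled GFP+ and 0 in titled GFP-, with a median of -0.94 (-0.42 at the bounds), and 16 passed without replicate 1. H2ac10 measured 10.25, 10.60, 10.27 and 10.46 against 14.30, 12.52, 13.46 and 12.39. The titled GFP- arrays were nearly equal while the titled GFP+ arrays spread with replicate 1 highest, and the difference was -2.77 ± 0.51 (adjusted p = 8.6e-04). H2ac15 (above background on 2 titled GFP- arrays, -3.28 ± 0.59, adjusted p = 7.8e-04), H2ac4 (-2.07 ± 0.42, adjusted p = 0.0021), H3c6 (-2.33 ± 0.51, adjusted p = 0.0039) and H3c11 (-2.30 ± 0.52, adjusted p = 0.0050) were further core histones higher in titled GFP+. H2ac8 differed by -2.38 ± 0.57 (adjusted p = 0.0076) and did not pass without replicate 1 (0.069). Near-identical copies of these genes may share probes, so single members are uncertain.

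**Figure D3:**
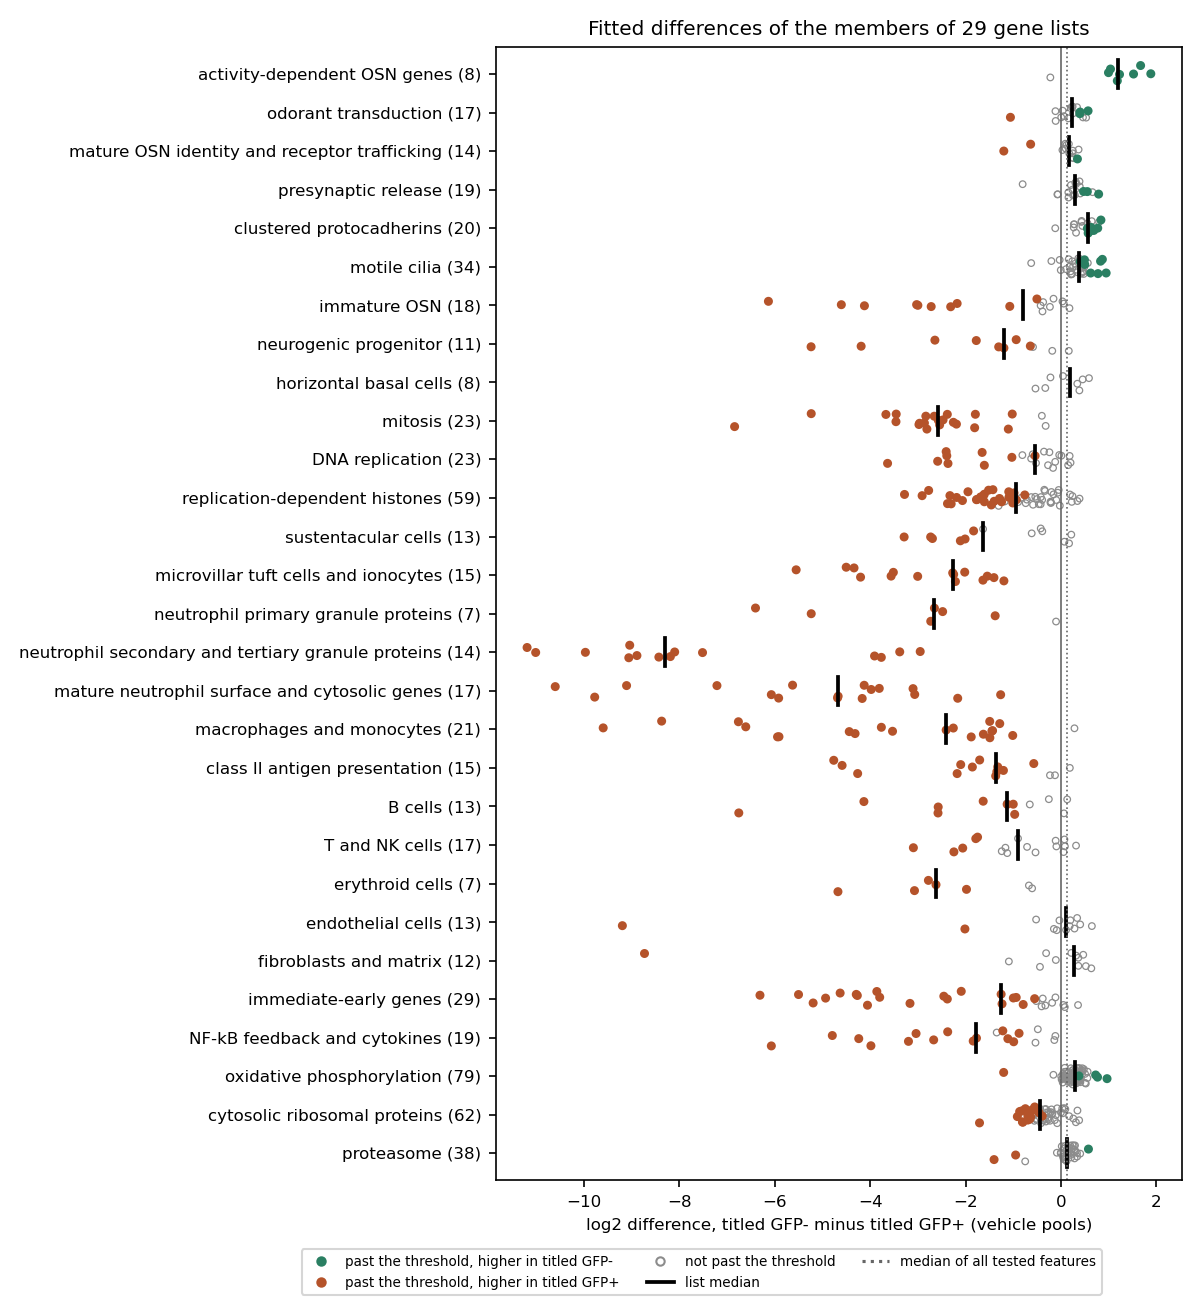
Fitted log2 difference, titled GFP- minus titled GFP+ (horizontal axis), of every measured member of 29 gene lists; filled points passed the threshold, open points did not, black bars are list medians and the dotted line is the median of all 19572 features, 0.13. The activity list has a median of 1.20, with Rab3b as its only member left of 0, and the mitosis, microvillar and neutrophil lists lie left of it; differences of dim genes are not bounded here.

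Supporting cell genes that passed were higher in titled GFP+. Of 13 sustentacular genes, 6 were higher in titled GFP+ and 0 in titled GFP-, with a median of -1.63 (0.00 at the bounds). Krt18, a keratin of supporting and other epithelial cells, was at least 1.18-fold higher in titled GFP+ (adjusted p = 3.1e-08). Its partner Krt8 measured 5.49 to 6.11 against 7.79 to 9.30 and was above background on 1 array (adjusted p = 9.7e-07). Notch2 (below background, adjusted p = 0.0019) and Cyp1a2, a cytochrome P450 gene above background on 1 array (adjusted p = 0.0044), were also higher in titled GFP+. Cyp2g1, the defining olfactory cytochrome P450, measured 13.37, 11.98, 11.40 and 13.53 against 14.69, 13.87, 13.58 and 14.68. It was higher in titled GFP+ in each pool, but its level varied between pools and it did not pass (-1.63 ± 0.55, adjusted p = 0.053). With the pools as a block, or with receptor centring, it did (0.0021 and 0.020). It also passed with overall-median centring, quantile normalization, an intensity trend or the vehicle arrays alone. It did not with dim features left out or without any 1 replicate.

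Of 13 Bowman gland genes, 3 were higher in titled GFP+. These were Ltf (lactoferrin), Sox9 and Lyz1, of which Ltf and lysozymes are also made by neutrophils or macrophages. Ltf was at least 19.6-fold and Sox9, a transcription factor, at least 1.48-fold higher (adjusted p of 1.2e-08 and 5.4e-08), and Lyz1 was below background (adjusted p = 9.9e-07). All 15 genes of microvillar tuft cells and ionocytes were higher in titled GFP+, with a median of -2.27 (0.00 at the bounds). Trpm5, the cation channel of tuft-like cells, measured 5.09, 4.90, 6.13 and 4.91 against 11.08, 9.25, 9.77 and 8.93, at least 1.11-fold higher (adjusted p = 1.2e-06). Foxi1, the transcription factor of ionocytes, was at least 1.53-fold higher (adjusted p = 4.3e-08). Alox5ap, at least 2.86-fold higher (adjusted p = 4.5e-08), and Alox5, above background on 1 array (adjusted p = 3.6e-07), make leukotrienes in tuft cells and also in neutrophils.

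Neutrophil genes gave the largest differences of the comparison. All 14 secondary and tertiary granule genes, all 17 genes of mature neutrophils and 6 of 7 primary granule genes were higher in titled GFP+. Lcn2, the iron-siderophore binding protein lipocalin 2, measured 6.57, 5.53, 6.10 and 6.99 in titled GFP- against 17.96, 17.44, 17.59 and 16.97 in titled GFP+. Titled GFP- was below background on all 4 arrays and titled GFP+ was high in all 4 pools, at least 237-fold higher (adjusted p = 3.1e-12). Ngp, the neutrophilic granule protein, and Chil3, a chitinase-like protein, were at least 232- and 85.2-fold higher (adjusted p of 7.4e-11 and 3.9e-10). Hp, haptoglobin, was at least 8.25-fold higher (adjusted p = 1.7e-10). Retnlg, a resistin-like protein of mature neutrophils, measured 4.99 to 6.07 against 15.23 to 16.82 and was at least 84.9-fold higher (adjusted p = 2.5e-11).

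The integrin Itgam, which neutrophils share with macrophages, was at least 5.65-fold higher in titled GFP+ (adjusted p = 6.9e-08). Mpo (myeloperoxidase) and Elane (neutrophil elastase), made by precursors in bone marrow, were at least 6.53- and 3.00-fold higher (adjusted p of 2.3e-07 and 4.9e-07). The medians were -8.31 for secondary and tertiary granules, -4.67 for mature neutrophils and -2.65 for primary granules, and -3.55, -0.18 and 0.00 at the bounds. The mean of the secondary and tertiary granule list was 5.43, 5.06, 5.08 and 5.33 in titled GFP- against 13.73, 12.38, 12.80 and 12.11 in titled GFP+. The titled GFP- means were close to each other, and the titled GFP+ means spread more widely with replicate 1 highest.

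Macrophage and monocyte genes were also higher in titled GFP+. Of 21, 20 passed in this direction (median -2.41, 0.00 at the bounds). Spi1, the gene of the myeloid transcription factor PU.1, measured 7.15, 6.30, 6.48 and 6.23 against 15.71, 14.62, 14.94 and 14.38, at least 39.6-fold higher (adjusted p = 1.1e-10). All 4 titled GFP+ arrays were far above background. Ly6c2, of inflammatory monocytes, was at least 21.1-fold higher (adjusted p = 2.5e-11), and the Fc receptor genes Fcer1g and Fcgr3 at least 8.02- and 6.61-fold (adjusted p of 1.5e-08 and 8.5e-09). All 6 NADPH oxidase genes were higher in titled GFP+ (median -5.86, -1.57 at the bounds). Cybb, the catalytic subunit, was at least 27.4-fold and Ncf1, a cytosolic subunit, at least 9.67-fold higher (adjusted p of 1.1e-08 and 4.1e-07).

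Antigen presentation and lymphocyte genes that passed were higher in titled GFP+. Of 15 class II genes, 12 were higher in titled GFP+, among them H2-Aa and H2-Ab1 at least 2.49- and 3.55-fold (adjusted p of 1.3e-07 and 6.1e-07). H2-Ab1 measured 12.90 on the titled GFP+ array of replicate 1 and 10.83 to 11.15 on the others. Of 12 class I genes, 8 were higher in titled GFP+, with H2-K1 at least 6.04-fold (adjusted p = 1.4e-06). B2m, beta-2-microglobulin, measured 8.69 to 9.74 against 13.85 to 15.28 and was above background on 1 titled GFP- array (-5.17 ± 0.33, adjusted p = 1.2e-08). Of 13 B cell genes, 8 were higher, led by Cd24a, also a marker of neutrophils and new neurons, at least 3.58-fold (adjusted p = 2.8e-08). Spib, of B and tuft cells, was below background (adjusted p = 8.0e-07), and Cd79a, which defines B cells, was above background on 1 array (adjusted p = 9.3e-04).

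Of 17 T and NK cell genes, 5 were higher in titled GFP+. The cytokine receptor gene Il7r was above background on 1 array (adjusted p = 2.8e-04), and Cd3e, which defines T cells, measured 4.45 to 4.79 against 5.93 to 7.90, below background on all 8 arrays (adjusted p = 0.0014). Of 15 mast cell, basophil and eosinophil genes, 8 were higher in titled GFP+ and 1 was lower. Hdc, histidine decarboxylase, was at least 2.93-fold higher (adjusted p = 5.1e-06), and the eosinophil granule gene Prg2 was below background (adjusted p = 8.1e-07). Of 7 erythroid genes, 5 were higher. The red cell anion exchanger Slc4a1 measured 8.44 to 9.38 against 13.32, 11.05, 12.37 and 11.54, at least 5.53-fold higher (adjusted p = 1.9e-04), and Rhag, of the Rh complex, was above background on 1 array (adjusted p = 3.0e-05). Of 7 platelet genes, all below background, only Treml1 passed. It was higher in titled GFP- (adjusted p = 0.045), and did not pass with the block (0.058) or without replicate 2, 3 or 4 (up to 0.20).

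Inflammatory receptors and ligands that passed were nearly all higher in titled GFP+. Of 55 chemokine and chemokine receptor genes, 15 were higher in titled GFP+ and 1 in titled GFP-, and the median of -0.13 (0.00 at the bounds) changed sign with overall-median centring. The monocyte receptor Ccr2 and the chemokine Ccl9 were at least 1.46- and 1.25-fold higher in titled GFP+ (adjusted p of 7.3e-07 and 1.9e-07). Of 33 pattern recognition genes, 18 were higher in titled GFP+, including Tlr13 and Tlr2, each above background on 1 array (adjusted p of 6.9e-07 and 1.4e-05). Of 24 interferon-stimulated genes, 5 were higher in titled GFP+ and 1 in titled GFP-, so most did not pass. Ifitm3, which blocks virus entry, was at least 1.99-fold higher (adjusted p = 1.1e-07).

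Of the endothelial, fibroblast and glial genes, 15.4%, 8.33% and 33.3% were higher in titled GFP+, against 9.82% of all features. Several of those that passed are also expressed by other cells. Of 13 endothelial genes, 2 were higher in titled GFP+: Ly6c1, at least 11.9-fold (adjusted p = 2.0e-10), a surface antigen also found on leukocytes, and Erg, an endothelial transcription factor gene, below background (adjusted p = 1.6e-04). The other endothelial genes, the defining ones included, lay below background on all 8 arrays and did not pass. Of 12 fibroblast and matrix genes, 1 passed: Fn1, the matrix protein fibronectin, measured 4.06 to 4.30 against 12.52 to 13.23 and was at least 9.87-fold higher in titled GFP+ (adjusted p = 2.8e-11). Fibronectin is also made by monocytes, and 11 of the 12 genes lay below background throughout. Of 12 ensheathing glia genes, 4 were higher in titled GFP+, among them Egr2, a Schwann cell regulator and also an immediate-early gene, and Apoe, also a macrophage gene. The share of such cells in these results was not tested.

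Immediate-early genes were higher in titled GFP+, in contrast to the activity-dependent neuron genes. Of 29, 20 passed, all higher in titled GFP+, with a median of -1.25 (-0.12 at the bounds). Fos, the AP-1 subunit, measured 11.08, 9.89, 9.81 and 10.88 against 15.69, 13.75, 14.26 and 15.12. Its level varied among the pools in both fractions, the groups did not overlap, and the difference was -4.29 ± 0.58 (adjusted p = 4.5e-05). Egr1 was above background on 1 titled GFP- array and on all titled GFP+ arrays (-4.63 ± 0.45, adjusted p = 1.2e-06). Egr2 was at least 9.48-fold higher (adjusted p = 1.8e-08), Ier3 at least 2.45-fold (adjusted p = 2.7e-07) and Btg2, an antiproliferative gene, at least 4.55-fold (adjusted p = 2.8e-07). Npas4, a transcription factor gene particular to active neurons, was below background on all arrays, at 4.07 to 4.59 against 3.54 to 4.14, and did not pass (adjusted p = 0.27).

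Of 19 NF-kB feedback and cytokine genes, 14 were higher in titled GFP+ (median -1.77, 0.00 at the bounds), and 9 passed without replicate 1. Il1b, interleukin 1 beta, was at least 4.75-fold higher (adjusted p = 2.4e-07), and Bcl3 was below background (adjusted p = 5.4e-06). The list means of the immediate-early genes were 7.91, 7.73, 7.54 and 7.69 in titled GFP- against 10.61, 9.65, 9.62 and 9.86 in titled GFP+. These genes can be expressed by neurons and by leukocytes, and the neutrophil list mean moved in the same direction in every pool; its part in this result was not tested.

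Housekeeping lists had smaller medians, and their counts moved with the centring. Of 62 cytosolic ribosomal protein genes, 17 were higher in titled GFP+ and 0 in titled GFP-, with a median of -0.45 (-0.38 at the bounds). Of these genes 4, 10, 9 and 9 passed without replicates 1 to 4 in turn, and 3 were higher in titled GFP+ with overall-median centring, where 6 were higher in titled GFP-. Rplp0, of the ribosomal stalk, measured 10.21, 9.97, 10.22 and 10.03 against 12.56, 11.20, 11.96 and 11.56 (-1.71 ± 0.24, adjusted p = 7.7e-05). Rps20 and Rps26 differed by -0.80 ± 0.16 and -0.87 ± 0.20 (adjusted p of 0.0015 and 0.0055). Of 79 oxidative phosphorylation genes, 4 were higher and 1 was lower in titled GFP-, with a median of 0.29 (0.24 at the bounds). With overall-median centring 71 were higher and 1 was lower, and with receptor centring 0 and 1. Ndufv1, of complex I, measured 14.38 to 14.62 against 14.03 to 14.37 (0.37 ± 0.11, adjusted p = 0.033), a call that ended without replicate 1, 2 or 3 (up to 0.17) and with receptor centring.

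Of 18 glycolysis genes, 2 were higher and 3 were lower in titled GFP-. The glucose transporter Slc2a3, of neurons and leukocytes, was above background on 1 titled GFP+ array (adjusted p = 8.3e-07), and lactate dehydrogenase Ldha was at least 4.24-fold higher in titled GFP+ (adjusted p = 7.0e-07). Pfkp, phosphofructokinase, was higher in titled GFP- by 0.46 ± 0.13 (adjusted p = 0.024), but not without replicate 1, 3 or 4 (up to 0.11) or with receptor centring. Of 38 proteasome genes, 3 passed, of which Psmb8 and Psmb9, the immunoproteasome subunits, were higher in titled GFP+ below background (adjusted p of 0.0044 and 0.011). Of 18 cholesterol genes only Insig1 passed, above background on 1 array (adjusted p = 1.5e-04). Of 17 unfolded protein response genes, 2 were higher in titled GFP+: Edem1 (-1.22 ± 0.23, adjusted p = 0.0011) and Atf3 (-1.24 ± 0.25, adjusted p = 0.0021), each above background on 1 titled GFP- array. None of 11 heat shock genes passed; Dnajb1 measured -0.58 ± 0.23 (adjusted p = 0.11), and with the pools as a block it passed (0.021).

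Of 31 lysosomal genes, 12 were higher in titled GFP+ and 1 in titled GFP-. The cathepsin gene Ctse measured 3.24 to 4.83 against 13.93, 10.82, 12.48 and 11.37, at least 5.84-fold higher (adjusted p = 1.5e-07), and Ctsh was above background on 1 array (adjusted p = 2.0e-08). Of 122 genes of xenobiotic metabolism, 13 were higher in titled GFP+ and 5 in titled GFP-, with a median of 0.13, the same as over all features. These counts were 10.7% and 4.10%, against 9.82% and 7.05% of all features. Gstp1, a glutathione transferase, and Cyp4f18, a leukotriene-degrading cytochrome of leukocytes, were both higher in titled GFP+ below background (adjusted p of 2.1e-05 and 2.8e-04).

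The 12 non-receptor genes with the largest differences toward titled GFP+, among those above background on all 8 arrays, also included 5 of other or mixed roles. Gpx1, a glutathione peroxidase, measured 11.02, 10.78, 11.55 and 10.92 against 15.92, 14.29, 14.81 and 14.45 (-3.80 ± 0.38, adjusted p = 2.0e-06). Apoe, apolipoprotein E, measured 10.33 to 11.77 against 14.16 to 14.86 (-3.33 ± 0.43, adjusted p = 2.9e-05). The arrays of the fractions did not overlap for either gene. Plp2, a membrane proteolipid gene, differed by -3.10 ± 0.26 (adjusted p = 2.8e-07), Sirpa, an inhibitory receptor of myeloid cells and neurons, by -2.60 ± 0.38 (adjusted p = 1.0e-04), and Txnip, a thioredoxin-binding protein gene, by -2.33 ± 0.43 (adjusted p = 8.9e-04).

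Olfactory receptors differed in both directions and more often than other genes. Of 1080 Olfr genes, 360 were higher in titled GFP- (33.3%) and 222 were higher in titled GFP+ (20.6%), against 7.05% and 9.82% of all features. The median was 0.43 (0.00 at the bounds), and 353 genes lay below background on all 8 arrays. With receptor centring 302 were higher and 253 lower in titled GFP- (median 0.16), and with overall-median centring 544 and 209 (median 0.83). Of 220 Olfr genes above background on all 8 arrays, 75 were higher and 18 lower in titled GFP-. The distribution was wide, with quartiles of -0.85 and 1.63 for receptors, against -0.09 and 0.31 for all other features. In the tails, 5% of receptor differences lay below -4.41 and 5% above 3.01, against -1.46 and 0.57 for all other features. Differences of dim genes are not bounded in these values. To set aside dim features, the comparison was repeated on those above background on all 8 arrays. Of 221 such receptors, trace amine receptors included, 94 passed (42.5%), with a median absolute difference of 0.91, while 430 of 4913 other features passed (8.75%), with a median absolute difference of 0.18. The spread among pools was wider as well: the range of the 4 pool differences had a median of 1.23 for receptors and 0.39 for others.

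**Figure D4:**
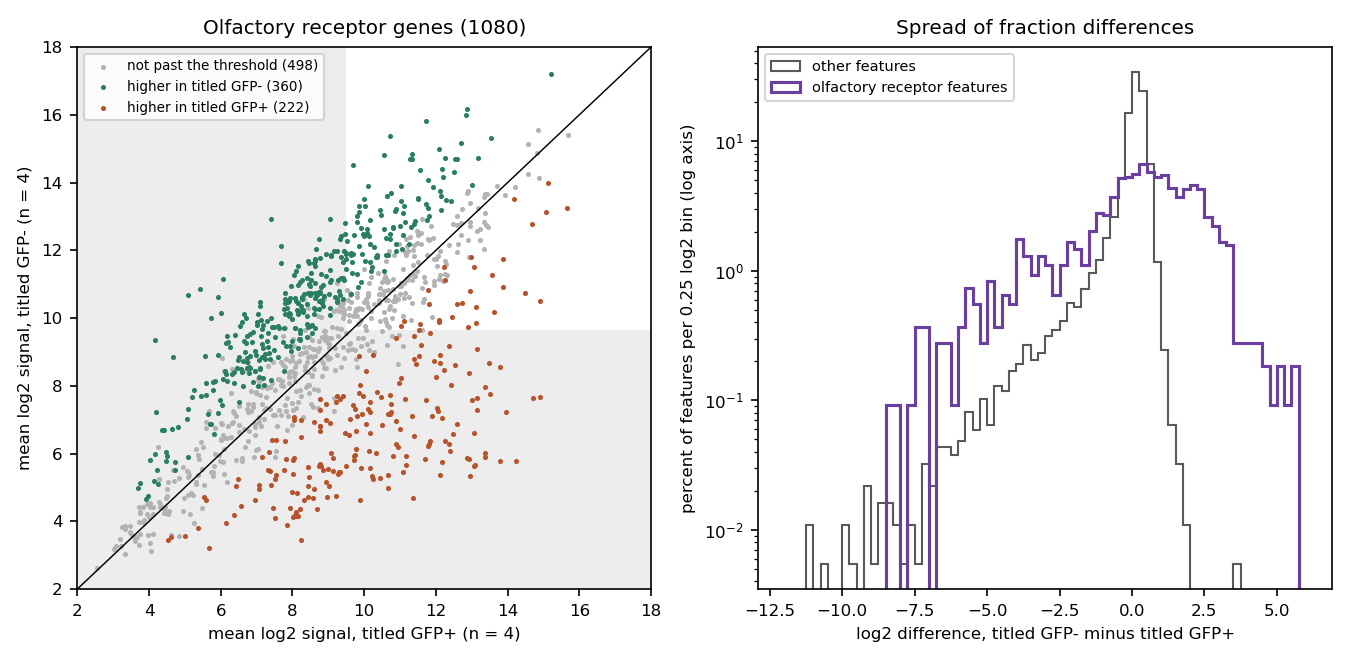
Left, mean log2 signal of 1080 Olfr genes in titled GFP+ (horizontal) and titled GFP- (vertical), n = 4 arrays each, coloured by call, with grey areas below the mean background level and a line of equality; right, percent of features per 0.25 log2 bin of the difference, on a log axis, for receptors and for all other features. Above the line lie 647 genes, of which 360 were called, and below it 433, of which 222 were called. The receptor differences spread more widely than those of other features.

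Among receptors above background on all 8 arrays, Olfr533 had the largest difference toward titled GFP-. It measured 14.71, 14.31, 15.14 and 15.07 against 9.72, 10.60, 10.94 and 10.89, a difference of 4.27 ± 0.32 (adjusted p = 8.0e-08). Olfr522, on the same chromosome as Olfr533, differed by 4.09 ± 0.24 (adjusted p = 4.8e-09). Olfr281, Olfr171, Olfr1220 and Olfr1099 differed by 3.77 ± 0.29, 3.52 ± 0.30, 3.51 ± 0.47 and 3.46 ± 0.61 (adjusted p of 1.0e-07 to 6.4e-04). In all 6 receptors the arrays of the fractions did not overlap. The 4 pools agreed in sign as well, which was a condition for naming these receptors. Receptors with the titled GFP+ arrays below background included Olfr110, at 12.48 to 13.33 against 7.17 to 7.70 and at least 10.9-fold higher in titled GFP- (adjusted p = 7.8e-11), and Olfr372, at least 2.66-fold (adjusted p = 2.5e-10).

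In the opposite direction, Olfr1395 measured 9.99, 10.04, 10.62 and 11.31 in titled GFP- against 15.08, 14.95, 14.52 and 15.09 in titled GFP+ (-4.42 ± 0.47, adjusted p = 3.1e-06). Every titled GFP+ array lay above every titled GFP- array of this receptor. Olfr672, Olfr1226, Olfr55, Olfr1425 and Olfr117 differed by -3.45 ± 0.54, -2.93 ± 0.30, -2.41 ± 0.21, -2.26 ± 0.44 and -2.19 ± 0.22 (adjusted p of 4.0e-07 to 0.0015). Olfr1384 and Olfr459 were below background in titled GFP- and at least 13.7- and 5.95-fold higher in titled GFP+ (adjusted p of 2.5e-11 and 3.1e-12). Olfr459 measured 5.45 to 5.87 against 11.94 to 12.33, with a wide gap between the fractions.

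The upstream windows of Olfr533 and Olfr1226 are shown as receptors at opposite ends of the comparison (RefSeq, GRCm38.p6). They span chr7:140465953-140466202 on the plus strand and chr2:89194033-89194282 on the minus strand. Of the 12 receptors named from those above background on all arrays, 6 had a single entry in the promoter table. Capitals mark a match to the AP-1 motif TGANTCA in Olfr533 and to the homeodomain motif TAATTA in Olfr1226.
Olfr533: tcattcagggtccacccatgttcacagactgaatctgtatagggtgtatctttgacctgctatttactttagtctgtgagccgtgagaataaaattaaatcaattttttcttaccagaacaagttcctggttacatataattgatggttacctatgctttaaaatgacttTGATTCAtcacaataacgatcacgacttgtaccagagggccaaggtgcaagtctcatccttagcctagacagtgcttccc
Olfr1226: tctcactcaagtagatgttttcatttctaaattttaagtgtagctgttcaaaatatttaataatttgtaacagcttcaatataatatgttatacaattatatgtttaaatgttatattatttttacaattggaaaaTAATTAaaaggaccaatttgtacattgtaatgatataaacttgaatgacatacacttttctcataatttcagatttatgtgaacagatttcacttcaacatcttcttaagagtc
TAATTA was found on either strand in 17.6% of 313 receptors higher in titled GFP-, in 21.3% of 188 higher in titled GFP+ and in 16.6% of 435 that did not pass. It was found in 5.65% of all genes of the table and in 4.13% of non-receptor genes that did not pass. TGANTCA was found in 8.95% of the receptors higher in titled GFP-, in 9.04% of those higher in titled GFP+ and in 12.6% of those that did not pass. It was found in 7.82% of all genes of the table. The matches are a description and identify no binding site.

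For some receptors the difference between the fractions varied widely among the pools. Olfr1320 had the widest range of pool differences of any feature above background on all arrays, at 9.75, 11.05, 10.44 and 13.27 in titled GFP- against 11.67, 11.78, 11.12 and 10.72 in titled GFP+. Titled GFP- was higher only in replicate 4, the fractions overlapped, and the difference of -0.20 ± 0.72 did not pass (adjusted p = 0.88). Its sign turned without replicate 1 (0.38) and with overall-median centring (0.21). Olfr6 measured 12.98, 13.32, 13.66 and 14.78 against 13.46, 12.33, 13.92 and 11.76 and did not pass (0.82 ± 0.53, adjusted p = 0.32).

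Trace amine-associated receptors were also split, 4 of 15 higher and 4 lower in titled GFP-. Taar4 measured 10.25, 10.75, 10.72 and 10.86 in titled GFP- against 7.22, 8.55, 8.55 and 9.51 in titled GFP+ (2.19 ± 0.57, adjusted p = 0.013). Only 1 of the titled GFP+ arrays was above background, so the size of this difference is uncertain. It lost the call without replicate 1, 2 or 3 (up to 0.065). Taar7f was at least 1.28-fold higher in titled GFP+ (adjusted p = 0.011; up to 0.11 without replicate 2 or 3), and Taar8a was higher in titled GFP- below background (adjusted p = 0.0058; 0.072 without replicate 1). Taar7 and Taar8 genes are close copies of each other and their probes may share signal. Of 201 vomeronasal type 1 receptors 11 passed and of 120 type 2 receptors 16, all higher in titled GFP- (5.47% and 13.3%, against 7.05% of all features). All 201 type 1 genes and 119 of the 120 type 2 genes lay below background on all 8 arrays, and 0 of either list passed with receptor centring. Vmn1r21 (adjusted p = 2.6e-05) and Vmn2r33 (adjusted p = 0.0089; 0.073 without replicate 4) were below background on all 8 arrays and did not pass with receptor centring. Of 38 taste receptor genes, 5 were higher and 1, Tas2r108, was lower in titled GFP-, the latter below background (adjusted p = 0.0026).

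The pools gave similar pictures, with replicate 1 the most different. Over the 1380 features higher in titled GFP-, the median pool difference was 0.86 in replicate 1 and 0.70, 0.75 and 0.69 in replicates 2 to 4. Over the 1922 features higher in titled GFP+, it was -2.26 in replicate 1 and -1.49, -1.71 and -1.47 in the others. These medians describe features called from the same arrays.

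The odor pools, made of different mice, held the same titled fractions. Of the 1380 features higher in titled GFP- in vehicle pools, 1313 (95.1%) had the same sign in odor pools and 830 (60.1%) passed there in the same direction, against 66.0% of all features with that sign and 12.2% passing. Of the 1922 higher in titled GFP+, 1912 (99.5%) had the same sign and 1625 (84.5%) passed, against 34.0% and 9.98% of all features. None of the 3302 passed in the opposite direction. Both comparisons used the same estimate of each feature's spread, so passing in odor pools was not independent of passing in vehicle pools. In the test of the difference between the treatments (limma interaction), 0 features passed. Of the 19572 features, 739 had an unadjusted p under 0.05, a share below the 0.05 that chance alone gives.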

How the data were processed

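Messenger RNA was measured on Clariom S arrays, 16 in all, of which the 8 vehicle arrays were compared here. The values are log2 signals deposited by the authors as 1 table for all 16 arrays. Per the submitters' processing notes they were made with Affymetrix Expression Console; the version is not given in the sources used here, nor is how background was corrected or probes were normalized and summarized. The table held 28846 entries, of which 19572 with 1 gene symbol (19505 genes) were tested and 9274 were not. The precision is limited by the number of arrays.

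A cell-means model was fitted to all 16 arrays with limma 3.58.1 in R 4.3.3 (lmFit and eBayes, two-sided, Benjamini-Hochberg adjustment, threshold 0.05), and the contrast titled GFP- minus titled GFP+ was taken in vehicle pools. The odor arrays entered through the shared estimate of the spread. No filter and no pseudocount were used. An array's background level was the 95th percentile of its 5222 negative controls; a lower bound sets the dim group at the higher of that level and its own signal. A list's median at the bounds puts dim members at their bound, or at 0 where both fractions were below background. The script was tested on simulated data with known differences.

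Same-numbered arrays held the same animals, so the numbers pair the samples. The main fit and the exact permutation tests did not use this pairing. Deviations from the group means correlated within vehicle pools at 0.188, 0.215, 0.189 and 0.337. The pool as a block, the vehicle arrays alone, quantile normalization, 2 centrings, a filter on dim features, an intensity trend and leaving out each pool were tried as alternatives.

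The samples and gene lists were chosen with earlier results of these data known. The named genes are S100a5; among called features above background on all 8 arrays with 1 sign in all pools, the 12 highest and 12 lowest non-receptor genes and 6 highest and 6 lowest receptors; up to 4 members of each list by smallest p, or the smallest p where none passed; the 5 genes with the widest range of pool differences; the 8 with the highest level in each fraction; and the S100 family. Not all of these are described, and genes named beyond the rule were named after their values were seen. Of the listed symbols, 61 had no match and are not used here.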

Additional observations from a re-analysis of the deposited data

Results flagged for a closer look

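In each group of 4 arrays, an array was singled out where its gap to the nearest other array took more than Dixon's 95% critical share of the group's range. Of 386 groups of named genes and list means tested, 19 passed (4.92%), and chance passes about 1 in 20, so the number by itself is near what chance gives.

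In titled GFP+, replicate 1 was the separate array for 10 of the 19 groups. It was lower for Rab3b (14.71, others 14.95 to 14.97), S100a3 (4.81, others 5.25 to 5.32) and Sema7a (13.13, others 13.55 to 13.60). It was higher for S100a10 (7.42, others 6.62 to 6.74), H2-Ab1 (12.90, others 10.83 to 11.15), Psmb8 (7.39, others 6.13 to 6.29), Ctsh (9.96, others 8.73 to 8.90) and Rps20 (11.11, others 10.81 to 10.83). It was also higher for the class I antigen presentation list mean (9.62, others 8.62 to 8.71) and the T and NK cell list mean (6.32, others 4.97 to 5.16). Replicate 4 of titled GFP+ was separate for Npas4 (3.54, others 4.08 to 4.14) and Ndufv1 (14.37, others 14.03 to 14.08). The titled GFP+ values of S100a3, S100a10, Psmb8 and Npas4 lay below background.

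In titled GFP-, replicate 3 was separate for Kit (4.46, others 4.80 to 4.83), Trpm5 (6.13, others 4.90 to 5.09) and Egr1 (8.31, others 9.44 to 9.67). Replicate 2 was separate for S100a9 (5.40, others 5.93 to 6.01) and Ccl9 (3.21, others 4.99 to 5.15). Replicate 4 was separate for Hp (4.87, others 3.99 to 4.01) and replicate 1 for Slc2a3 (4.02, others 3.26 to 3.35). Every value singled out in titled GFP- lay below the background level of its array.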

How the results depend on the processing

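The count of 3302 features, 1380 higher and 1922 lower in titled GFP-, became 13985 with 12456 higher when arrays were centred on the median of tested features, 2144 with 343 higher when centred on the receptor median, and 1122 with 635 higher and 487 lower when dim features were left out. Quantile normalization gave 2643 higher. With the replicate block, which uses the pairing of the fractions within a pool, it was 3708, with 1663 higher and 2045 lower. Leaving out 1 pool gave 2138 to 2662 features, 681 to 945 higher and 1457 to 1717 lower, with the lowest counts without replicate 1. S100a5 ranged from 0.95 to 1.04 without 1 pool, and measured 0.73 without passing (adjusted p = 0.11) with receptor centring.

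Among genes that did not pass, the sign turned with receptor centring for Adcy3 (-0.025), Cnga2 (-0.064), Omp (-0.15), Gfy (-0.24) and Stoml3 (-0.26). With centring on the median of tested features it turned for Rab3b (0.18) and Olfr1320 (0.21), and leaving out 1 pool gave -1.11 to 0.38 for Olfr1320, positive only without replicate 1. Of the 12 named genes that did not pass, 9 did with overall-median centring, among them Adcy3, Cnga2, Omp, Gfy and Stoml3. Of the 163 named genes that passed, 134 kept the call with receptor centring, 158 with the block, 160 with quantile normalization and 147 to 155 without 1 pool; 143 kept it in all 4 fits without a pool, 128 under every alternative that could be fitted, and none changed sign. The block ended no call among named genes other than those of Pde4a, Slc17a6, Nsf, Ttc8 and Treml1. The cause of these changes was not tested. Signal over background limits the comparison: 1745 called features were below background on all 8 arrays (935 with a GC-graded background level chosen after seeing the data).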
